A study of Mus musculus with 4 samples.

Results

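Tbx21, Eomes, Prdm1, Id2 and Id3 are transcription factor genes that direct T cells from the naive state into effector and memory states, and they were followed over 4 expression arrays of mouse splenic T cells. They were taken as all probe sets that the platform annotation assigns to one of these 5 gene symbols alone. That gave 8 probe sets for the 5 genes, of 12393 genes with a probe set of their own: 3 for Id2, 2 for Eomes and 1 each for Tbx21, Prdm1 and Id3. No probe set assigned to several symbols held one of them, so every member was measured. All 5 members were among the 8596 genes that exceeded a floor on 1 array or more. The floor, a signal of 93.9, is the 40th percentile of all values, and signals at or below it were set to it.

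T cells of wildtype and Gfi1 knockout C57Bl/6 mice were sorted from spleen by their staining for CD4, CD8 and CD44. Gfi1 is a DNA-binding repressor of blood and lymphoid cells. There were 4 groups, CD4+ and CD8+ cells of either labelled genotype, all described as CD44 low, and each group is 1 array of RNA pooled from 2 mice. The labels give no age of the mice and do not say how the knockout allele was made. Without replicates the variation between animals is unknown, and having only 4 arrays limits how precise any value is. In bulk RNA, fewer cells of a type and less RNA per cell cannot be told apart.

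The labels were set against the data before the members were described. Gfi1, the targeted gene, read 2891 on the array labelled knockout CD4, 2272 on wildtype CD4, 2447 on knockout CD8 and 1158 on wildtype CD8, so its signal was not lower on either array labelled knockout. Where its probe set lies relative to the deleted part was not known here, so its signal does not check the genotype. Cd44 read 196 (CD4) and 252 (CD8) under the knockout label, against 8136 and 5740 under the wildtype label, although every sample is described as CD44 low. The sample titles also carry a letter that the labels do not explain, N on both arrays labelled knockout and M on both labelled wildtype. Genotype is therefore given as labelled, and every direction below goes along with this difference in Cd44. Cd4 and Cd8a met the subset labels: Cd4 lay above the floor on the CD4 arrays and not on the CD8 arrays, and Cd8a the other way round. The other CD8 marker, Cd8b1, was above the floor on all arrays. It read 970.5 on knockout CD4 and 312 on wildtype CD4, against 25715 on knockout CD8 and 26222 on wildtype CD8. The other CD4 marker, Zbtb7b, read 701 and 587 on these CD4 arrays and 110 and 148 on these CD8 arrays, also above the floor. Of 6 other T cell markers, all 6 were above the floor on each array.

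T-bet (Tbx21) and Eomes belong to the T-box family and activate genes of cytotoxic and interferon-producing T cells. Blimp-1 (Prdm1) is a repressor that drives terminal differentiation of effector T cells and of plasma cells. Id2 and Id3 carry a helix-loop-helix domain without a DNA-binding region and inhibit E proteins by pairing with them. In CD8 T cells Id2 is known for its part in effector cells and Id3 for its part in cells that go on to form memory. Naive T cells express little T-bet, Eomes or Blimp-1.

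The promoters are shown for Tbx21 and Eomes, the members at least 2-fold lower on the array labelled knockout in both subsets, and for Prdm1, which held the most copies of the short core that Gfi1 recognises. RefSeq windows of 300 bases, from 250 before to 50 after the start of the gene (build GRCm38.p6), were found for all 5 members and searched on both strands for AATC (read as GATT on the other strand), the core of the Gfi1 motif. The 250 bases before the start are printed 5′ to 3′ along the gene, with AATC or GATT in capitals.
Tbx21, chr11:97115332-97115581, minus strand: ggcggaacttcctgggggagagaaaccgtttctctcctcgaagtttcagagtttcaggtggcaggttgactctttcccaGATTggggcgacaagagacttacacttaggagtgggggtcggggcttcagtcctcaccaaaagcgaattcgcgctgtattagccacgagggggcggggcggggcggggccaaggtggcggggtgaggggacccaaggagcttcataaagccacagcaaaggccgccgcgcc
Eomes, chr9:118477939-118478188, plus strand: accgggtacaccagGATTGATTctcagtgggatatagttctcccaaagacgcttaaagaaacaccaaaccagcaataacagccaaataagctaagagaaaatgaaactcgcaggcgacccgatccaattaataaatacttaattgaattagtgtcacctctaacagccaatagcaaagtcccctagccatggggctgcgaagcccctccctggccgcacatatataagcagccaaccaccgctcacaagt
Prdm1, chr10:44458749-44458998, minus strand: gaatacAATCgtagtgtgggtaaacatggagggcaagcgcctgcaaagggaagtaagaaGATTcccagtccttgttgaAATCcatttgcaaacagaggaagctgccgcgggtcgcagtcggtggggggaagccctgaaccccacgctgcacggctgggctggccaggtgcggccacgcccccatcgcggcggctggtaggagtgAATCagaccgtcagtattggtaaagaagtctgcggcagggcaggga

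AATC occurred 4 times in the Prdm1 window, 2 times in that of Eomes, once in those of Tbx21 and Id2, and not in that of Id3. At least 1 copy was present in 73.1% of 32851 promoter windows of the same length, at least 2 copies in 44.5% and at least 4 copies in 10.1%. In the Eomes window both copies lie side by side, starting 236 and 232 bases before the start of the gene. The E-box CANNTG, which E proteins bind, occurred 2 times in the windows of Tbx21 and Prdm1, once in that of Id2 and not in those of Eomes and Id3, beside 72.3% of all windows with at least 1. The T-box core TCACAC was in none of the 5 windows and in 14.5% of all windows. Each motif was counted on its own, and sites of different motifs that overlap were not merged. A match is a run of letters and was not tested for binding.

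On the arrays labelled knockout, all 5 genes read lower than on the arrays labelled wildtype, in CD4 and in CD8 cells. Of all genes, 28.2% read lower in both subsets. In CD4 cells 4 of the 5 were at least 2-fold lower, against 7.29% of all genes, and 0 of 5 were at least 2-fold higher, against 1.95%. In CD8 cells 2 of the 5 were at least 2-fold lower, against 3.99% of all genes, and 0 higher, against 1.14%. The median log2 difference of the 5 genes was -2.44 in CD4 and -0.63 in CD8 cells, beside 0.0 over all genes in each. Between these arrays, with 1 on each side, there is no test within a subset.

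**Figure D1:**
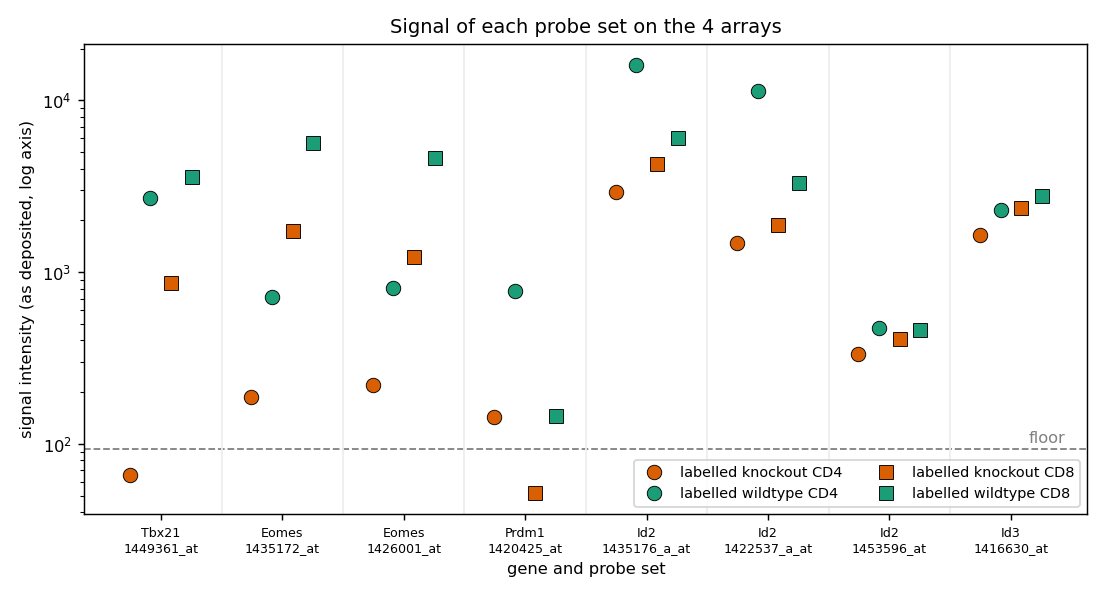
Signal intensity as deposited (log axis) of the 8 probe sets on the 4 arrays, with circles for CD4, squares for CD8, orange for arrays labelled knockout and green for those labelled wildtype. The dashed line is the floor of 93.9, and every orange point lies below the green point of the same shape.

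Across both subsets, limma was fitted to all 8596 genes with subset and genotype label as terms. It called 1 of the 5 members lower on the arrays labelled knockout (Eomes), against 0.465% of all genes, and 0 higher, against 0.0814%. The fit has 1 residual degree of freedom, the difference between the subsets, which limma joins with a prior of 5.11 degrees of freedom from genes of like expression. Its adjusted p-values therefore describe these arrays and not a spread between animals. The other members had unadjusted p-values of 0.0011 (Tbx21), 0.0111 (Id2), 0.016 (Prdm1) and 0.0444 (Id3), among 1123 genes with an unadjusted p under 0.05.

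Tbx21, the gene of T-bet, the master factor of type 1 helper cells, read 65.6 on the array labelled knockout CD4, 2689 on wildtype CD4, 864 on knockout CD8 and 3599 on wildtype CD8. The array labelled knockout CD4 was the only one at the floor, and both arrays labelled wildtype were above both labelled knockout. Tbx21 was at least 28.6-fold lower in CD4 cells of the knockout label, where 7 of 8596 genes (0.0814%) had a log2 difference as low or lower. In CD8 cells it was 4.16-fold lower, which 82 genes (0.954%) matched or passed. Limma did not call it (adjusted p = 0.0825), with 2 of 2 pairs of arrays lower. The call depended on how low signal was handled: with the floor at the 50th percentile the adjusted p was 0.0214, and with a pseudocount of 50 it was 0.00706. Other settings took Tbx21 further from a call. Its adjusted p was 0.189 after quantile normalization, 0.119 with median centring, 0.178 with averaged probe sets and 0.255 without the trend.

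Eomes, the T-box relative of T-bet that is known from memory CD8 and natural killer cells, read 187 on the array labelled knockout CD4, 717 on wildtype CD4, 1741 on knockout CD8 and 5660 on wildtype CD8. All 4 values lay above the floor. Both CD8 arrays were above both CD4 arrays, and within each subset the array labelled wildtype was the higher. Limma gave a log2 difference of -1.82 ± 0.19 (SE) for the genotype label, with an adjusted p of 0.0294 and 2 of 2 pairs lower. The other probe set of Eomes read 219, 804, 1218 and 4611 on the same arrays, in the same order. The 2 probe sets differed by 0.06 in their CD4 log2 difference and by 0.22 in that of CD8. Over 2760 genes with at least 2 probe sets that exceeded the floor on every array, the median range between probe sets was 0.30 and 0.28. With every probe set fitted on its own, both Eomes probe sets were called (adjusted p = 0.0142 and 0.0121). The call of Eomes was lost after quantile normalization (adjusted p = 0.0905), with arrays centred on their medians (0.0671), with probe sets averaged (0.0503) and without the trend in limma's prior (0.119), under which limma called 0 genes, with 990 at an unadjusted p under 0.05. The log2 difference stayed between -1.86 and -1.56 under these.

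**Figure D2:**
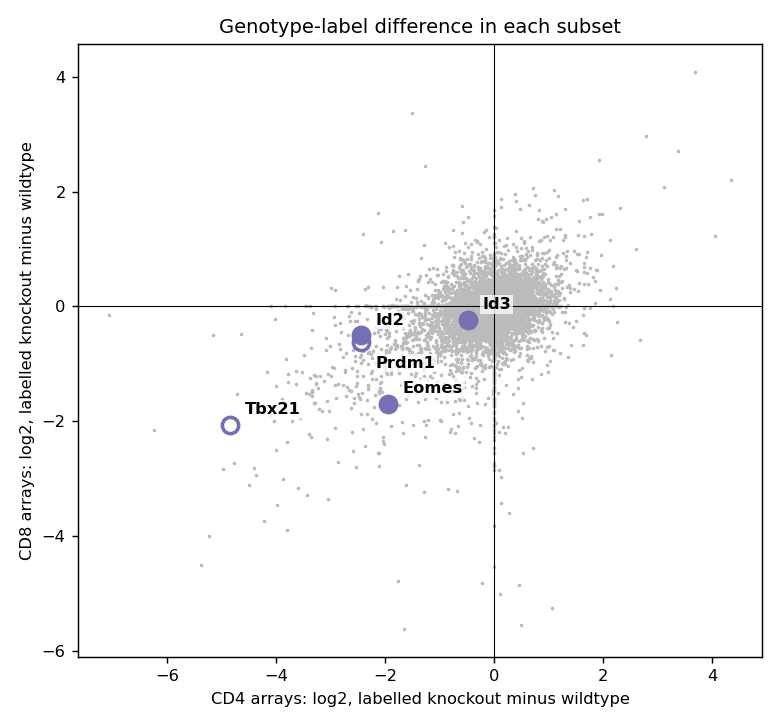
Log2 difference between the array labelled knockout and the array labelled wildtype in CD4 cells (x axis) and in CD8 cells (y axis) for 8596 genes (grey) and the 5 members (purple; open where an array lay at the floor, so that the value is a bound). Tbx21 and Eomes are low on both axes, Id2 and Prdm1 are near -2.44 on the x axis and above -1 on the y axis, and Id3 lies near the origin.

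Prdm1, the gene of Blimp-1, read 143 on the array labelled knockout CD4, 773 on wildtype CD4, 51.7 on knockout CD8 and 145 on wildtype CD8. The array labelled wildtype CD4 stood alone above the rest, and the array labelled knockout CD8 lay below the floor. Prdm1 was 5.41-fold lower in CD4 cells of the knockout label, and 136 genes (1.58%) were as low. In CD8 cells it was at least 1.54-fold lower, with both arrays near the floor, where a ratio of low signals is least certain. Limma did not call Prdm1 (adjusted p = 0.227). Its CD8 value depended on the floor: with the floor at the 50th percentile both CD8 arrays lay at it and no difference was left. With the floor at the 20th percentile or none the CD8 log2 difference was -1.49, and Prdm1 was called (adjusted p = 0.0385 and 0.0296).

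Id2, the ID protein gene of effector T cells, read 2942 on the array labelled knockout CD4, 15967 on wildtype CD4, 4259 on knockout CD8 and 6048 on wildtype CD8 with its brightest probe set. The array labelled wildtype CD4 was the highest, and the other 3 lay between 2942 and 6048. In CD4 cells Id2 was 5.43-fold lower on the array labelled knockout, and 132 genes (1.54%) were as low. In CD8 cells it was 1.42-fold lower, which 953 genes (11.1%) matched or passed, and limma did not call it (adjusted p = 0.199). A second probe set read 1478, 11345, 1885 and 3287 on the same arrays and gave signals lower by 7.68-fold (CD4) and 1.74-fold (CD8). The third was dim and nearly flat, at 331, 472, 406 and 460, which is lower by 1.42-fold (CD4) and 1.13-fold (CD8). The 3 probe sets thus spanned 2.43 log2 units in CD4 cells, while 90% of genes with several probe sets spanned at most 0.80. Leaving out probe sets whose names end in _s_at, _x_at or _a_at left only the dim one, with a log2 difference of -0.51 in CD4 cells and an adjusted p of 0.713.

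Id3, the ID protein gene of naive and memory-forming T cells, read 1639 on the array labelled knockout CD4, 2295 on wildtype CD4, 2355 on knockout CD8 and 2770 on wildtype CD8. Its values were the closest together of the 5 genes, with a range of 0.76 log2 units over the 4 arrays, against 2.44 for Id2 and 4.92 for Eomes. Id3 was lower by 1.4-fold (CD4) and 1.18-fold (CD8) under the knockout label, and 17.9% and 23.9% of all genes were as low. Limma did not call it (adjusted p = 0.361). Centring the arrays on their medians raises every difference above the floor by 0.31 (CD4) and 0.21 (CD8), and the Id3 differences then became -0.17 and -0.02.

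The genotype-label difference in CD4 cells minus that in CD8 cells was -0.24 (log2) for Eomes, -0.25 for Id3 and -1.93 for Id2. The other probe set of Eomes gave 0.04, of opposite sign, and the other probe sets of Id2 gave -2.14 and, for the dim one, -0.33. For Tbx21 the CD4 difference is a bound, so its gap between the subsets was -2.78 or further below 0. For Prdm1 the CD8 difference is a bound, so its gap was -1.81 or higher, and its size is not known. None of these gaps was tested, since a term for them leaves no residual degree of freedom.

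Between the subsets, Eomes was the member that limma called. It was 7.90-fold higher in CD8 cells of the wildtype label and 9.34-fold higher in those of the knockout label, and its other probe set gave 5.73-fold and 5.56-fold. Only 18 and 12 of 8596 genes were as high or higher in these comparisons. Limma gave a CD8 minus CD4 log2 difference of 3.10 ± 0.19 (SE) and an adjusted p of 0.0047, and this call was lost without the trend (0.128). It was 1 of the 5 members called higher in CD8, against 0.174% of all genes, and 0 were called lower, against 0.0698%.

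Tbx21 was near level between the subsets on the arrays labelled wildtype, 1.34-fold higher in CD8 cells, and at least 9.20-fold higher in CD8 cells on those labelled knockout. Limma did not call its subset term (adjusted p = 0.381). Prdm1 was 5.33-fold lower in CD8 than in CD4 cells of the wildtype label and at least 1.52-fold lower in those of the knockout label (adjusted p = 0.345). Id2 was 2.64-fold lower in CD8 cells of the wildtype label and 1.45-fold higher in those of the knockout label (adjusted p = 0.805). Id3 was 1.21-fold and 1.44-fold higher in CD8 cells (adjusted p = 0.44). On the arrays labelled wildtype, 1 member was at least 2-fold higher in CD8 cells, against 3.11% of all genes, and 2 lower, against 4.99%. On those labelled knockout, 2 were at least 2-fold higher, against 1.94%, and 0 lower, against 1.27%. These comparisons share arrays with the genotype-label comparisons above.

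**Figure D3:**
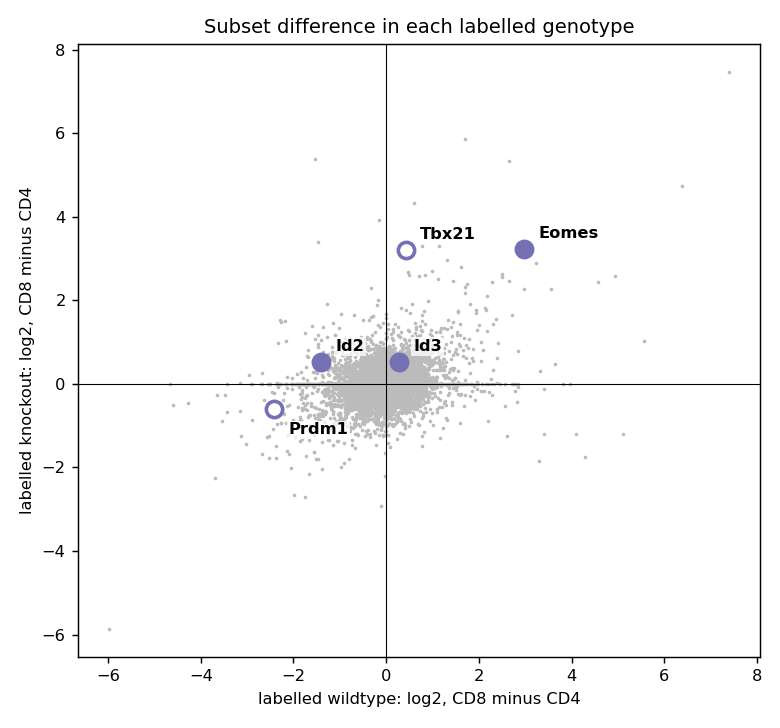
Log2 difference between CD8 and CD4 cells on the arrays labelled wildtype (x axis) and on those labelled knockout (y axis) for 8596 genes (grey) and the 5 members (purple; open where an array lay at the floor). Eomes is high on both axes, Tbx21 only on the y axis, Prdm1 is lowest on the x axis, and Id2 lies left of 0 and above it.

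The patterns of the 5 genes over the 4 arrays were set against each other as log2 values after the floor, centred on their mean, so that Tbx21 and Prdm1 each enter with 1 array at the floor. The closest pair was Prdm1 and Id2, with a root mean square difference of 0.54 log2 units, followed by Id2 and Id3 at 0.81, Prdm1 and Id3 at 1.18 and Tbx21 and Eomes at 1.22. The values were not scaled by the range of each gene, so the nearly flat Id3 can rank close without a shared pattern. Id2 and Prdm1 were highest on the array labelled wildtype CD4, and Id3 on wildtype CD8. The distances of Id3 are therefore not a measure of likeness in pattern. Prdm1 and Eomes were the farthest apart, at 2.34. Among other genes above the floor on all 4 arrays, Ahnak (0.30), the chemokine gene Ccl5 (0.34) and the chemokine receptor gene Cxcr3 (0.50) were closest to Tbx21. Tm6sf1 (0.53), Reck (0.56) and Crtam (0.62), the last the gene of a T cell surface protein, were closest to Eomes. Eea1 (0.13), Spry1 (0.15) and Irf4 (0.18) were closest to Prdm1, Irf4 being another transcription factor of effector cells. Ezh2 (0.10), the gene of a histone methyltransferase, Nsmf (0.13) and Il12rb1 (0.14), an IL-12 receptor chain, were closest to Id2. Slk, Fam111a and Oas3 (0.04 each) were closest to Id3, whose values vary little. A distance over 4 arrays is a description, and the 977 candidates for every member but Id3 were required to vary by at least 1 log2 unit.

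Reported targets of T-bet and Eomes were the related list with the most calls. Of 24 named genes, 23 exceeded the floor on some array, and limma called 10 of them lower on the arrays labelled knockout and 0 higher, against 0.465% and 0.0814% of all genes. In both subsets 13 of the list were at least 2-fold lower, as were 178 of all 8596 genes. Some of the list lay at the floor on both arrays labelled knockout. Among them was Klrg1, at 70.8 (CD4) and 89.5 (CD8), which is counted in the 10 and in the 13. Such genes passed the filter only through an array labelled wildtype, so that they could only read lower. Klrk1, the gene of the killer receptor NKG2D, read 65.8 on the array labelled knockout CD4, 1742 on wildtype CD4, 113 on knockout CD8 and 1511 on wildtype CD8 (adjusted p = 0.0114). Gzmk, which encodes a granzyme, was lower by at least 12.1-fold (CD4) and 8.93-fold (CD8) under the knockout label (adjusted p = 0.0146). Klrc1, a gene of NKG2 receptors, was lower by at least 14.6-fold and by 8.07-fold (adjusted p = 0.0191). Fasl, the death ligand gene, was lower by 5.78-fold and by at least 6.99-fold (adjusted p = 0.0294). The median log2 difference of the 24 genes was -2.57 in CD4 and -2.12 in CD8 cells, beside 0.0 over all genes, with members at the floor at their bound. Prf1, the perforin gene, went the other way in CD4 cells, at 1375 on the array labelled knockout and 314 on that labelled wildtype. Il18r1, an IL-18 receptor chain gene, read higher under the knockout label in both subsets, at 3535 against 2981 in CD4 and 6269 against 4515 in CD8 cells. The count of 10 fell to 2 with averaged probe sets or quantile normalization, to 3 with median centring and to 0 without the trend. It was 5 when only genes above the floor on all 4 arrays were fitted, and rose to 15 with the lower floor or none.

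Other effector and memory transcription factors showed fewer calls. Of 20 genes 17 were named and 14 lay above the floor. Limma called 1 lower and 0 higher, against 0.465% and 0.0814% of all genes. The called gene was Hopx, a homeodomain-only gene, with a log2 difference of -1.27 ± 0.16 (SE) and an adjusted p of 0.0454. This call was lost after quantile normalization, with median centring, with averaged probe sets, without probe sets ending in _s_at, _x_at or _a_at and without the trend. In CD4 cells 5 of the 14 were at least 2-fold lower and 0 higher, against 7.29% and 1.95% of all genes. In CD8 cells 3 were lower and 0 higher, against 3.99% and 1.14%. Each of these 3 lay at the floor on both arrays labelled knockout, as did some of the 5 in CD4 cells. Such genes passed the filter only through an array labelled wildtype, so that no other direction was possible for them. Bhlhe40, a regulator of cytokine production, read 51.9 on the array labelled knockout CD4, 1537 on wildtype CD4, 41.5 on knockout CD8 and 374 on wildtype CD8 (adjusted p = 0.0806). Irf4, which acts beside Blimp-1 in effector cells, was 3.90-fold and 1.34-fold lower (adjusted p = 0.311). Nr4a2, an orphan nuclear receptor gene, was at least 1.57-fold and at least 2.73-fold lower (adjusted p = 0.203).

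Transcription factors of naive and stem-like memory cells were mixed. All 13 named genes lay above the floor, with a median log2 difference of 0.79 (CD4) and 0.02 (CD8). In CD4 cells 3 were at least 2-fold higher and 2 lower, against 1.95% and 7.29% of all genes. In CD8 cells 0 were higher and 1 lower, against 1.14% and 3.99%. Limma called 1 lower and 0 higher, against 0.465% and 0.0814% of all genes. The called gene was Myb, known from progenitors and stem-like memory cells, at -1.85 ± 0.14 (SE), adjusted p = 0.0114. The list had no call with averaged probe sets, without probe sets ending in _s_at, _x_at or _a_at or without the trend, and had 7 with the lower floor and 6 with none. Sox4 was 2.00-fold higher in CD4 and 1.79-fold higher in CD8 cells of the knockout label (adjusted p = 0.0806), and Bach2 3.11-fold and 1.61-fold higher (adjusted p = 0.104). Bcl6, the opponent of Blimp-1 in B and helper T cells, was 2.35-fold and 1.55-fold lower (adjusted p = 0.231), the same direction as Prdm1.

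**Figure D4:**
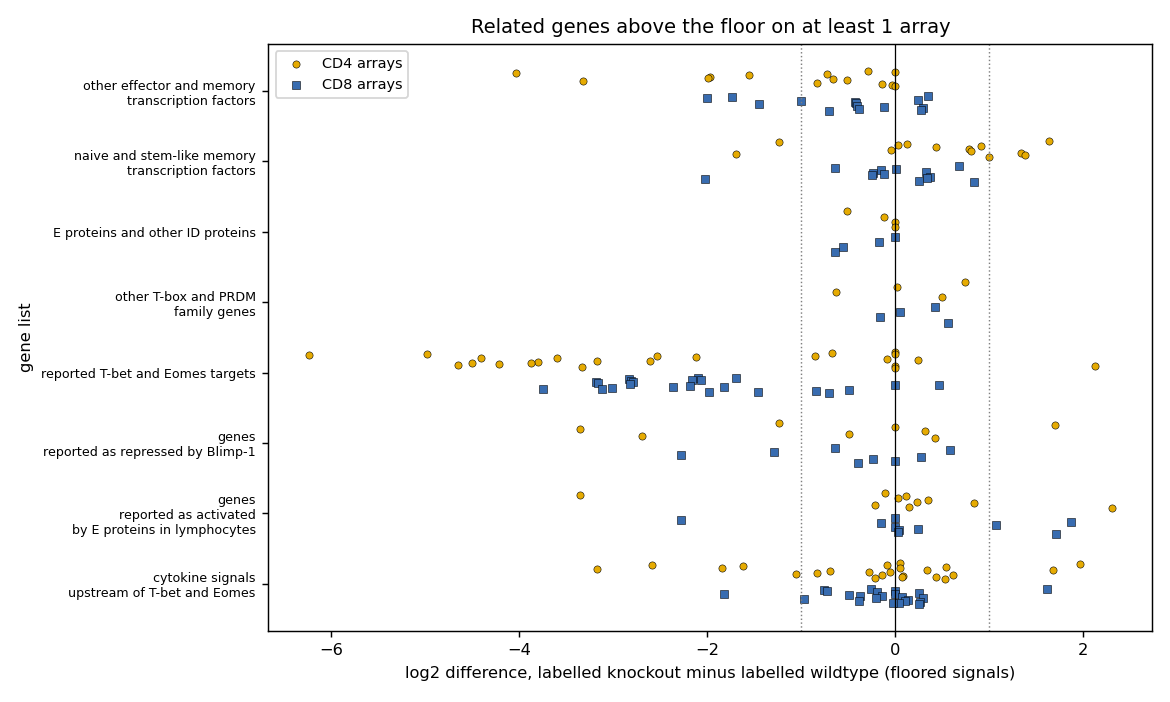
Log2 difference between arrays labelled knockout and wildtype (x axis) in CD4 cells (circles) and CD8 cells (squares) for the genes of each related list (y axis) that exceeded the floor on some array, with values at the floor drawn at their bound and dotted lines at 2-fold. The reported T-bet and Eomes targets lie furthest to the left, with medians over the named genes of -2.57 (CD4) and -2.12 (CD8), and the E proteins lie within 1 log2 unit of 0.

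None of the E proteins that Id2 and Id3 inhibit was called. Of 7 genes of E proteins, other ID proteins and related factors, 4 lay above the floor, and limma called 0, with 0 at an unadjusted p under 0.05. Tcf12 read 3422 on the array labelled knockout CD4, 3714 on wildtype CD4, 4331 on knockout CD8 and 4882 on wildtype CD8 (adjusted p = 0.69). Tcf3 read 1214, 1215, 932 and 1365 on the same arrays (adjusted p = 0.655). Tcf4 and Lyl1 exceeded the floor on 1 array each, at 146 on wildtype CD8 and 134 on wildtype CD4. Id1 and Id4, the remaining ID protein genes, were among the 3 that stayed at the floor on all 4 arrays. Among genes reported as activated by E proteins, limma called 1 higher and 1 lower of 10 above the floor. Over all genes it called 0.0814% higher and 0.465% lower. Socs3, an inhibitor of cytokine signalling, was higher by 2.01 ± 0.17 (SE), adjusted p = 0.0138, and Cxcr5, a chemokine receptor gene, was lower by limma at -2.81 ± 0.30 (SE), adjusted p = 0.0294. The list's 2 calls became 1 after quantile normalization or median centring and 0 with averaged probe sets or without the trend. In this list Gfi1 had an adjusted p of 0.201 and Il7r, the IL-7 receptor gene, one of 0.308.

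Of the other T-box and PRDM family genes, 14 could be named, 10 lay at the floor on all 4 arrays, and limma called 0 of the remaining 4, with 1 at an unadjusted p under 0.05. Mga, a T-box gene of ubiquitous expression, read 1383, 826, 1675 and 1246 on the arrays labelled knockout CD4, wildtype CD4, knockout CD8 and wildtype CD8 (adjusted p = 0.238). Tbx6 read 276, 195, 221 and 150 (adjusted p = 0.507). Tbx19 read 99.3, 154, 105 and 118 (adjusted p = 0.587) and Prdm4 920, 906, 839 and 806 (adjusted p = 0.966).

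Genes reported as repressed by Blimp-1 were mixed. Of 10 named genes, 8 lay above the floor. Limma called 1 lower (Cxcr5) and 0 higher, against 0.465% and 0.0814% of all genes. In CD4 cells 3 were at least 2-fold lower and 1 higher, against 7.29% and 1.95% of all genes. In CD8 cells 2 were lower and 0 higher, against 3.99% and 1.14%. Some of these lay at the floor on both arrays labelled knockout, so that they could only read lower. The list had no call under the same 4 settings that ended the call of Eomes, and 3 calls with the lower floor or none. Ccr7, the lymph node homing receptor gene, was 3.25-fold higher in CD4 and 1.5-fold higher in CD8 cells of the knockout label (adjusted p = 0.136). Fos, an immediate early gene, was 1.25-fold and 1.21-fold higher (adjusted p = 0.478). Bcl6 and Id3, both described above, are also in this list, and each had less signal under the knockout label in both subsets.

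Cytokine signalling genes upstream of T-bet and Eomes gave 1 call, of a lower gene, among 23 genes above the floor. Over all genes limma called 0.465% lower and 0.0814% higher. The called gene, Il2rb, is also counted among the calls of the reported T-bet and Eomes targets. Il2rb, the chain shared by the IL-2 and IL-15 receptors, was lower at -2.49 ± 0.30 (SE), adjusted p = 0.0358. No gene of the cytokine list was called after quantile normalization, with median centring, with averaged probe sets or without the trend. With the lower floor or none, 3 were called. Il12rb1 was lower by 6.01-fold (CD4) and 1.68-fold (CD8) under the knockout label (adjusted p = 0.203), and Smad3 2.08-fold and 1.95-fold lower (adjusted p = 0.225). Ifngr2, a chain of the interferon gamma receptor, was 3.91-fold and 3.07-fold higher (adjusted p = 0.0819). Over the list, 5 genes were at least 2-fold lower and 2 higher in CD4 cells, against 7.29% and 1.95% of all genes. Not all of the 5 could have gone the other way, since some of the list lay at the floor on both arrays labelled knockout. In CD8 cells 1 was lower and 1 higher, against 3.99% and 1.14%, so that the count of lower genes is near that of all genes there.

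Markers of other cell types differed between the arrays beside these results. The 4 regulatory T cell markers were all above the floor on the array labelled wildtype CD4, with a summed signal of 5822, against 2 of 4 and 807 on knockout CD4, 1 and 368 on knockout CD8, and 1 and 417 on wildtype CD8. Prdm1 and Id2 were also highest on the array labelled wildtype CD4, and regulatory T cells are known to express both. Of 9 dendritic cell and myeloid markers, 7 were above the floor on the array labelled wildtype CD8, with a summed signal of 2410, against 328 to 398 and 2 or 3 markers on the others. Of 5 natural killer cell markers, 4 were above it on that array (summed signal 1455) and 0 to 2 on the others (0 to 487), while the defining marker Ncr1 was below it on all 4 arrays. Eomes and Tbx21 were highest on that same array. Plasma cell markers summed to 1987 on wildtype CD4, 1563 on wildtype CD8, 1106 on knockout CD4 and 978.5 on knockout CD8. Most of each sum was a single gene, Creld2, at 1294, 1257, 978 and 978.5 on these arrays, while Tnfrsf17 was below the floor on all 4. B cell markers summed to 1574 on wildtype CD8, 1429 on wildtype CD4, 738 on knockout CD8 and 154 on knockout CD4, with Cd79a, Ms4a1 and Pax5 below the floor on all 4. The part of such cells in the members' values was not tested.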

How the data were processed

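The values are linear signal intensities of 22690 probe sets on 4 one-colour arrays, deposited by the authors; GCOS 1.4 and MAS5 are named per the submitters' processing notes, with no further steps stated. The 2% trimmed mean is near 1000 on each array, so the deposited signals appear scaled to a common level. Median signals ran from 189 to 235.

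Of the 22690, 64 controls were left out. The platform annotation gives 1 symbol to 20380, several to 691 and none to 1555; 20351 matched RefSeq (GRCm38.p6), used for current names and promoter sequences. A gene is its probe set with the highest mean log2 signal. Log2 was taken after the floor, and where 1 array is at the floor its fold is a bound.

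Limma 3.58.1 (R 4.3.3, lmFit, eBayes with trend, subset and genotype label as terms) was run on 8596 genes. Benjamini-Hochberg adjustment was over all genes, with a threshold of 0.05. Limma was also run on simulated data with the same noise for every gene and no floor applied. That run therefore cannot check the calls on the floored arrays. Without replicates, 2-fold is the rule of size. Other steps used Python 3.11.15. Members and lists were chosen with earlier results of these data known. Genes named from lists are up to 4 per list, called ones by adjusted p, then those with the largest smaller difference over both subsets. Klrg1, Prf1, Il18r1, Id1, Id4 and single cell type markers were named after their values were seen. Likeness was ranked as stated with the result.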

Additional observations from a re-analysis of the deposited data

Results flagged for a closer look

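The subset difference of Id2 ran in opposite directions in the labelled genotypes, on all 3 of its probe sets. With the brightest, CD8 minus CD4 was -1.40 (log2) on the arrays labelled wildtype and 0.534 on those labelled knockout. With the second it was -1.79 and 0.351. With the dim one it was -0.035 and 0.293, so that its wildtype value is close to 0. Each value compares 1 array with 1 array, and the difference between the labelled genotypes was not tested.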

How the results depend on the processing

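No paired analysis was possible because each group has 1 array and the labels give no replicate numbers, and leaving out a replicate likewise could not be done; the values within each subset are those without the arrays of the other. In the genotype-label term, the adjusted p of Tbx21 was 2.75e-07 with a lower floor (20th percentile), 0.0214 with a higher one (50th), 0.000415 without a floor and 0.00706 with a pseudocount of 50. It was 0.189 after quantile normalization, 0.119 with median centring, 0.178 with averaged probe sets and 0.255 without the trend. That of Prdm1 was 0.0385 with the lower floor and 0.0296 without one, and that of Id2 0.000212 and 0.00931. That of Eomes was 0.0905 after quantile normalization, 0.0671 with median centring, 0.0503 with averaged probe sets and 0.119 without the trend. In the subset term, Tbx21 had 0.00165 with the lower and 0.0365 without a floor, Prdm1 0.0486 without a floor, and Eomes 0.128 without the trend. The causes were not tested. Tbx21 and Prdm1 could not be fitted under the filter on all 4 arrays. No called value changed sign.

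Counts of genes called higher and lower by genotype label, 7 and 40 as reported, were 148 and 403 with the lower floor, 113 and 332 without one, 52 and 194 with the pseudocount, 57 and 144 with a filter on all 4 arrays, 25 and 69 over single probe sets, 4 and 11 after quantile normalization, 2 and 8 with averaged probe sets, 0 and 0 without the trend (990 before adjustment), 13 higher with the higher floor and 11 lower with median centring. Counts for CD8 over CD4, 15 higher and 6 lower, were 149 and 124, 122 and 99, 61 and 44, and 60 and 46 under the lower floor, no floor, the pseudocount and the filter on all arrays, 26 and 11 with the higher floor, 7 and 2 after quantile normalization, 8 and 2 with median centring, 1 and 1 without the trend, and 2 lower with averaged probe sets. Differences of low genes such as Prdm1 are limited by signal near the floor.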
